A study of Helicoverpa armigera with 12 samples.

Results

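Desaturases, fatty acyl reductases and elongases, the enzymes that modify fatty acyl chains in lipid, wax and pheromone synthesis, were described across the life stages of the cotton bollworm moth *Helicoverpa armigera*. Members were all assembled contigs whose best protein match in the nr database was described as a desaturase, a fatty acyl or fatty acyl-CoA reductase, or an elongase (an elongation of very long chain fatty acids protein). They numbered 147 of 99711 contigs and lay in 90 of 73709 unigenes, a unigene being the group of contigs that the assembler treated as forms of 1 gene. The desaturases comprised 43 contigs, the fatty acyl reductases 73 and the elongases 31. The 12 libraries were each made from the pooled whole bodies of several insects, reared on artificial diet, and no treatment was named. There were 4 libraries of 1st instar larvae, collected 3 days after they hatched, 4 of 5th instar larvae on the first day after ecdysis, and 4 of adults on the first day after eclosion, of which 2 were male and 2 female. The sex of the larvae was not given, and the female libraries are called replicates 3 and 4 after their titles, although the columns of the table number them 1 and 2. Levels are FPKM, a count of sequenced fragments scaled for the length of the contig and for the mapped fragments of the library, and no genome position was used for any contig.

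Acyl-CoA desaturases place a double bond at a set carbon of a fatty acyl chain, and the position is part of the enzyme's name, as in delta-9 or delta-11. Elongases carry out the first, rate-limiting step of lengthening a chain beyond the product of fatty acid synthase, and fatty acyl reductases turn an acyl-CoA into a fatty alcohol. In moths, these enzymes supply membrane and storage lipid, the long chains of cuticular wax and hydrocarbon made largely in oenocytes, and, in the abdominal pheromone gland of females, the precursors of the sex pheromone.

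The descriptions were checked against annotation that the rule did not use. The Pfam domain of fatty acid desaturases was listed for 23 of 43 desaturase contigs, the ELO domain for 28 of 31 elongase contigs, and a domain of the reductase family (NAD_binding_4 or Sterile) for 56 of 73 reductase contigs. No domain was listed for 19, 3 and 13 contigs of these classes. Some descriptions differed from the other annotation. The contig c57546_g1_i1, described as a desaturase, carried the domain and the Swiss-Prot match of hydroxymethylglutaryl-CoA lyase, an enzyme of ketone body synthesis and leucine breakdown, and is called here by that match. It remains in all counts and sums of the desaturases, where it held 5.80% of the FPKM in the 5th instar and 4.74% in females. The contig c62051_g1_i1 carried the desaturase domain but its Swiss-Prot match was a cytochrome b5-related protein, and the 3 contigs of c63154_g1 carried, beside the desaturase domain, the Lipid_DES domain and the KEGG name DEGS of sphingolipid desaturases. The position in a name was not always shared: c52334_g1_i1 and both contigs of c61129_g1, described as delta-9 desaturases, had a delta-11 desaturase as their Swiss-Prot match, and c55161_g1_i1, described as delta-11-like, had a delta-9 desaturase. These contigs are called by their nr descriptions. The 3 contigs of c59301_g2 held both an elongase domain and the domain of the formylglycine-generating enzyme, so that their values cannot be given to either alone. Another 4 reductase contigs carried a reverse transcriptase domain, all of them below the filter on low values. The best match of 3 desaturase contigs was to a mouse, a rat and a plant protein, and these too were below the filter.

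Levels were compared as log2(FPKM + 1) by limma. A contig was tested if its mean over the 12 libraries reached 1 FPKM, which 27678 contigs did, and an adjusted p below 0.05 over all of these was taken as a call. A difference given on that scale understates the change of contigs near 1 FPKM. Of the members, 94 contigs in 51 unigenes passed this filter (20 desaturase, 45 reductase and 29 elongase contigs). Among the 53 that did not, the highest value in any library was 4.09 FPKM, 12 were above 0 in every library, and 10 were at 0 in every adult library. How many fragments a value rests on cannot be read from FPKM. The summed FPKM of a library ran from 1074573 to 1509632 in larvae and from 447094 to 688947 in adults, so that differences between adults and larvae were also computed with every library scaled to the same sum (TPM) and after quantile normalization. The correlation of log2(FPKM + 1) between libraries of a group ran from 0.971 to 0.977 for the 1st instar, from 0.725 to 0.868 for the 5th, and was 0.882 between the males and 0.846 between the females. Contigs of a unigene share reads that RSEM divides among them, and reads of an antisense transcript cannot be told apart from those of the gene, so that the split between such contigs is uncertain. In whole bodies, fewer cells of a type and less RNA per cell cannot be told apart.

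Summed over a class, elongases and fatty acyl reductases were highest in the 1st instar, while the desaturases were not. The elongases summed to 1105, 921, 854 and 994 FPKM in the 1st instar libraries, to 224, 222, 226 and 201 in the 5th instar, to 333 and 250.3 in males and to 154 and 207 in females. The lowest 1st instar library thus lay above every other library. The fatty acyl reductases summed to 1989.8, 1743, 1545 and 2072 FPKM in the 1st instar, to 364, 927, 431 and 625 in the 5th instar, to 277 and 306 in males and to 262 and 249 in females, and here too no library of another group reached the 1st instar. For the desaturases the 1st instar libraries lay close together at 1221, 1203, 1120.1 and 1285 FPKM, whereas the 5th instar libraries were at 639.7, 2137, 2041 and 856, the males at 669 and 1366 and the females at 212 and 1097. The 5th instar desaturase sum was therefore high in replicates 2 and 3 and low in replicates 1 and 4, and the same kind of gap separated the libraries of each sex. By group mean the elongases and reductases were also highest in the 1st instar under TPM, a scaling described above. All members together made up 0.0914% to 0.347% of a library's summed FPKM.

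**Figure D1:**
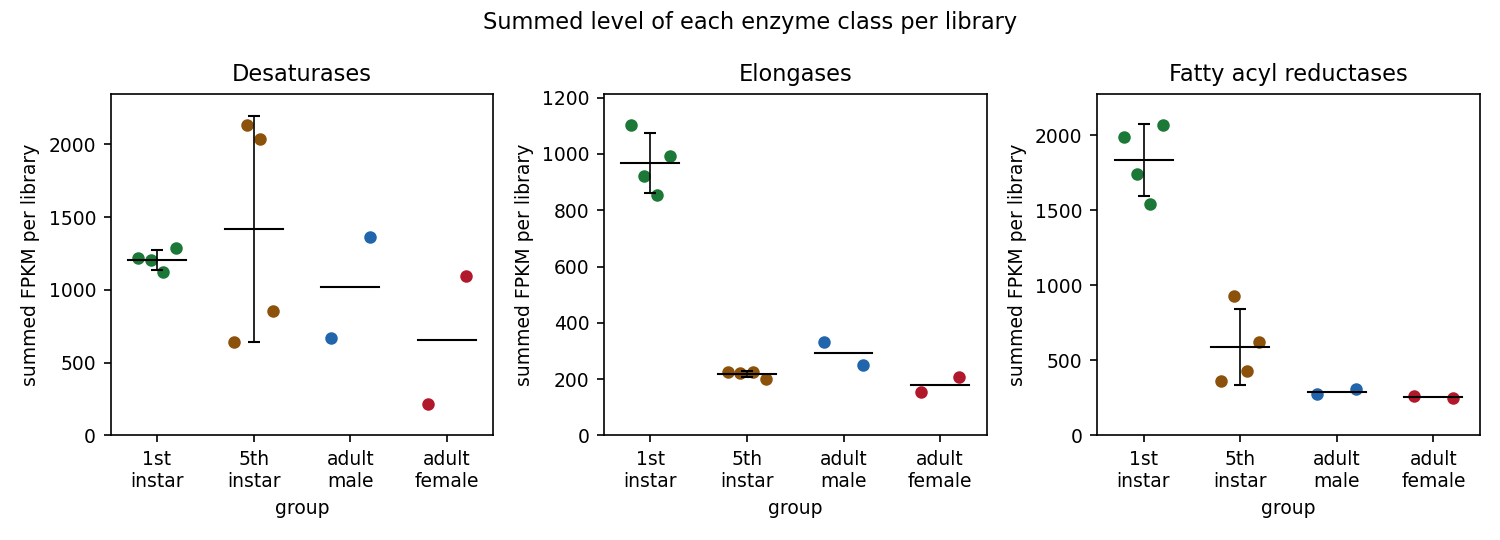
Summed FPKM of all desaturase, elongase and fatty acyl reductase contigs (y axis, linear, from 0) in each of the 12 libraries by group (x axis); points are libraries, horizontal lines are group means and bars are SD for the larval groups (n = 4). The 1st instar libraries lie at 854 to 1105 FPKM for elongases, above every other library, while the 5th instar desaturase sums spread from 640 to 2137 FPKM.

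The classes were led by different contigs at different stages. Of the desaturase FPKM, the HvirIPAE-type contig c55444_g1_i1 held 35.7% in the 1st instar, the delta-9 unigene c61129_g1 held 52.7% in the 5th instar, and the other delta-9 unigene, c52334_g1, held 85.8% in males and 78.0% in females. The elongase c61674_g1 led its class in both larval stages and in females, and c59301_g1 led it in males with 39.0%. The reductase unigene c55262_g2 led its class in every group, with 53.5% of the FPKM in the 1st instar, 51.5% in the 5th, 27.6% in males and 28.8% in females.

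**Figure D2:**
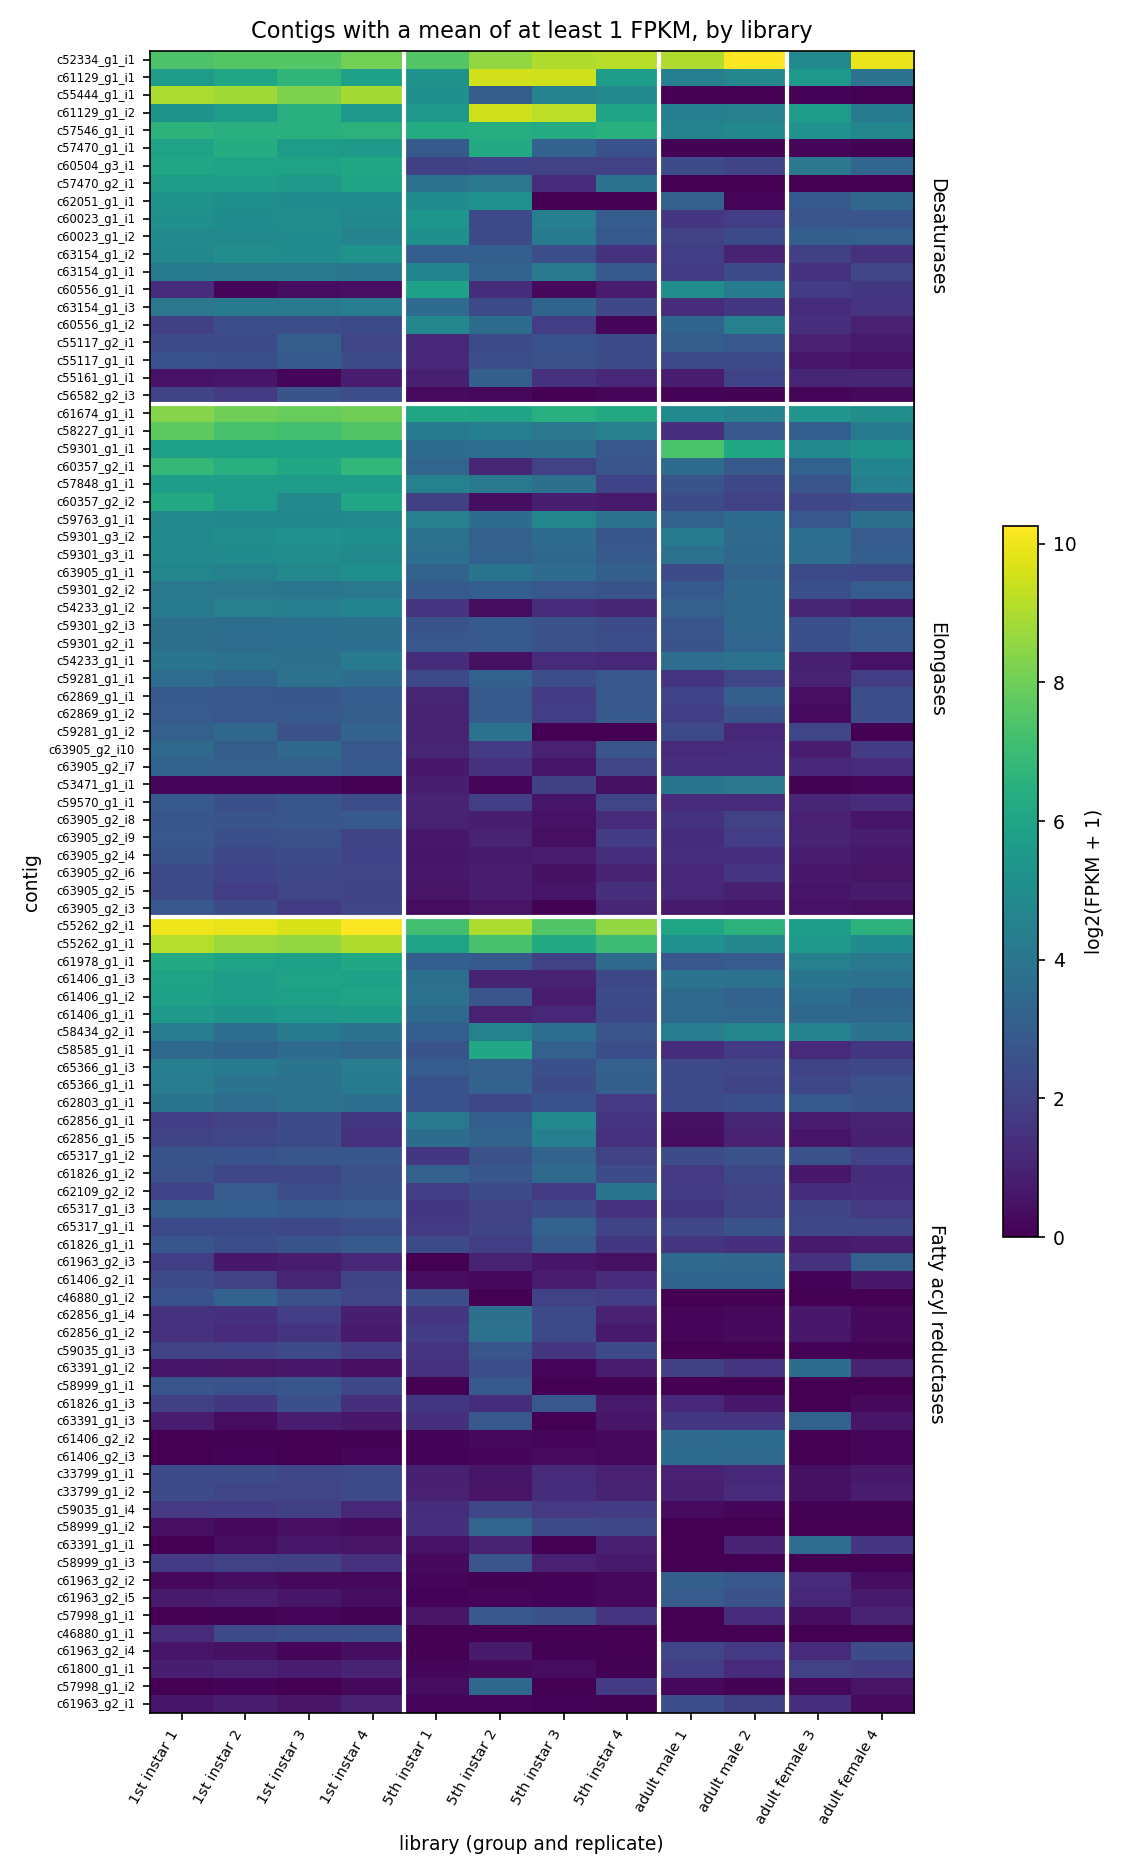
Level of each of the 94 contigs with a mean of at least 1 FPKM (rows, ordered within a class by mean level) in each of the 12 libraries (columns, by group and replicate), with the colour giving log2(FPKM + 1). The 1st instar columns are the brightest for 59 of the 94 contigs by group mean, and for 27 of the 29 elongase contigs.

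By group mean, 59 of the 94 members (62.8%) were highest in the 1st instar, 15 in the 5th instar, 16 in males and 4 in females. Over all contigs tested, the shares were 33.3%, 29.5%, 24.1% and 13.1%. Among the elongases, 27 of 29 were highest in the 1st instar and the other 2 in males. All 4 of the 1st instar libraries lay above all 8 others for 42 members (44.7%), against 18.1% of all contigs tested, and by more than 2 times for 20 members (21.3%), against 6.90%.

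The comparison of the larval stages asked which enzymes differ between young larvae, soon after hatching, and larvae that have just entered the 5th instar. Of the 94 members, 46 were higher in the 1st instar, 2 were lower and 46 were not called. Over all contigs tested 40.1% were called, 21.7% higher and 18.4% lower in the 1st instar. The elongases were nearly all on one side, with 24 of 29 higher, in 12 of 15 unigenes, and none lower by limma's adjusted or unadjusted p. Of the reductases, 15 of 45 were higher and 2 lower, and of the desaturases 7 of 20 were higher and none lower (limma, with 2 lower at an unadjusted p below 0.05). The median difference on the log2(FPKM + 1) scale was 1.58 for the elongases, 0.83 for the desaturases and 0.49 for the reductases, and -0.01 over all contigs tested. Under TPM the split of the members was 42 higher and 3 lower, and after quantile normalization 45 and 2. Over all contigs 47.1% and 55.8% of the calls were on the higher side under these scalings. With any 1 library left out, between 46 and 53 members were called.

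**Figure D3:**
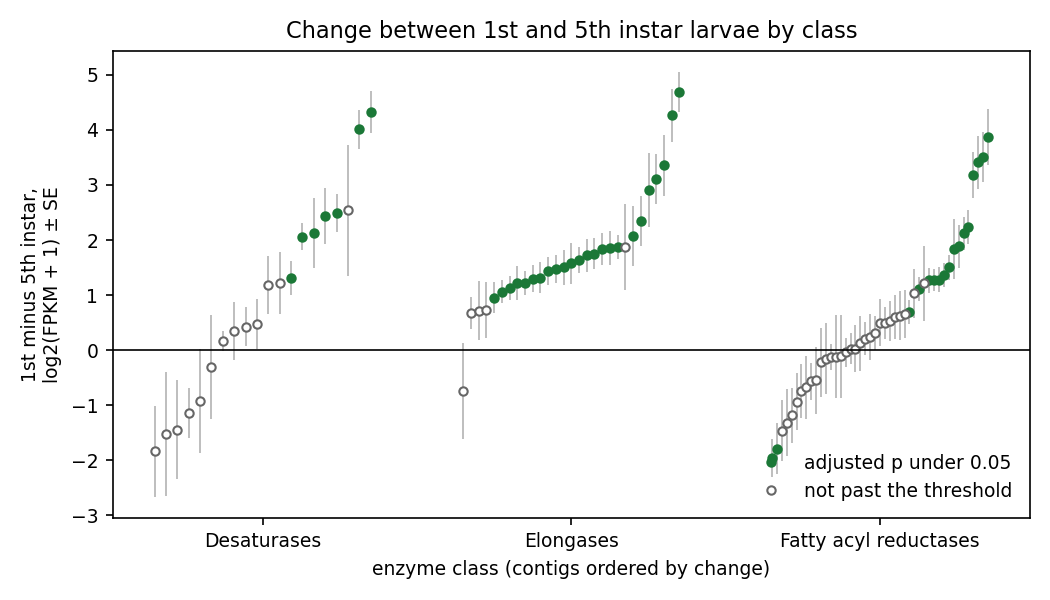
Difference between 1st and 5th instar larvae in log2(FPKM + 1) with its standard error (y axis) for each contig of the 3 classes (x axis, ordered by change within a class); filled points passed an adjusted p of 0.05 and open points did not. All 24 called elongases lie above 0, as do the 7 called desaturases, and 2 of the 17 called reductases lie below it.

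Among the desaturases, the clearest larval difference was that of c55444_g1_i1, best matched by HvirIPAE of the tobacco budworm *Heliothis virescens*, an acyl-CoA desaturase named after its species and a short signature motif. It stood at 510.3, 438, 309 and 465 FPKM in the 1st instar and at 34.1, 7.21, 22.2 and 29.2 in the 5th. It was 0 in both males and 0.0840 and 0.0220 in females, so that the 3 stages did not overlap. The mean of the 1st instar was 18.6 times that of the 5th, a difference of 4.32 (SE 0.389, limma adjusted p = 8.17e-06) on the log2(FPKM + 1) scale, with an exact permutation p of 0.0286, the smallest that 4 against 4 libraries allow. The adult difference was -8.69 (SE 0.389, limma adjusted p = 8.24e-09) against the 1st instar and -4.37 (SE 0.389, limma adjusted p = 4.71e-06) against the 5th. These calls held under every alternative that was fitted to single contigs, which is meant wherever a contig's call is said to have held.

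A pair of unigenes of the same number, c57470_g1 and c57470_g2, matched HvirKPVE of *H. virescens* and a desaturase of the turnip moth *Agrotis segetum*. The contig c57470_g2_i1 was at 48.2, 52.6, 43.9 and 62.5 FPKM in the 1st instar and at 13.5, 15.6, 1.44 and 13.8 in the 5th, and it was listed at 0 in all 4 adult libraries. The larval difference was 2.44 (SE 0.504, limma adjusted p = 0.00302). The contig c57470_g1_i1 was at 58.5, 79.7, 50.3 and 44.9 FPKM in the 1st instar and at 6.39, 74.2, 8.42 and 4.95 in the 5th, where replicate 2 alone reached the 1st instar level, and it did not exceed 0.123 FPKM in any adult library. Its larval difference of 2.13 (SE 0.637, limma adjusted p = 0.0206) was lost when 1st instar replicate 2 or 5th instar replicate 1, 3 or 4 was left out, with limma adjusted p of 0.0542 to 0.057, and in a fit of the larvae alone (0.0577). For adults the differences from the 5th instar were -3.65 (SE 0.637, limma adjusted p = 0.00113) and -3.27 (SE 0.504, limma adjusted p = 0.000442), and both held under every alternative.

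The desaturase c60504_g3_i1, also matched to *A. segetum*, differed between the stages and between the sexes. It was at 66.4, 60.9, 59.1 and 68.2 FPKM in the 1st instar, at 2.87, 3.17, 2.90 and 3.08 in the 5th, at 4.22 and 3.32 in males and at 15.6 and 9.20 in females. The 1st instar mean was 21.2 times that of the 5th, a difference of 4.01 (SE 0.356, limma adjusted p = 7.39e-06). Both female libraries lay above both male libraries, and the male minus female difference was -1.45 (SE 0.246, limma adjusted p = 0.00285). A fit of the adult libraries alone gave a limma adjusted p of 0.161 for the sexes.

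**Figure D4:**
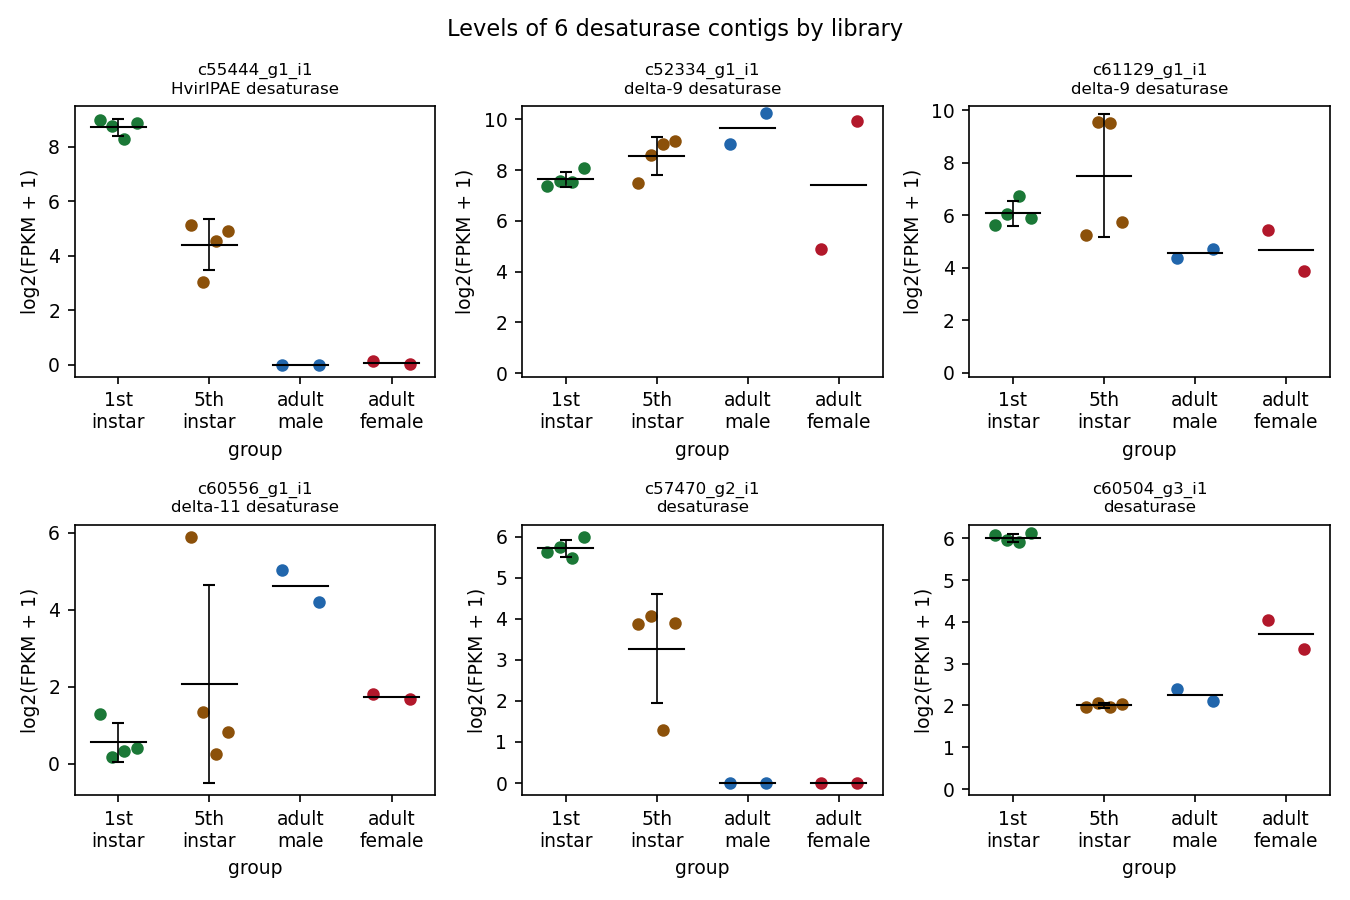
Levels of 6 desaturase contigs as log2(FPKM + 1) (y axis, its range set per panel) in the 12 libraries by group (x axis); points are libraries, horizontal lines are group means and bars are SD for the larval groups (n = 4). The contigs c55444_g1_i1 and c57470_g2_i1 are at or near 0 in adults, c61129_g1_i1 splits the 5th instar into 2 high and 2 low libraries, and the delta-11 contig c60556_g1_i1 is high in 1 of the 4 libraries of the 5th instar.

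The contigs described as delta-9 desaturases, by their match to the corn earworm *Helicoverpa zea*, were abundant at every stage with large gaps between libraries of a group. The contig c52334_g1_i1 was at 166, 189, 185 and 268 FPKM in the 1st instar and at 181, 383, 517 and 564 in the 5th. It was at 527 and 1219.6 in males and at 28.5 and 993 in females, so that female replicate 3 was the lowest and male replicate 2 the highest of the 12 libraries. No comparison called it, and the male minus female difference was 2.23 (SE 1.25, limma adjusted p = 0.308). The contig c61129_g1_i1 was at 48.5, 64.8, 105 and 58.0 FPKM in the 1st instar, at 36.9, 750.0, 729 and 52.5 in the 5th, at 19.9 and 25.5 in males and at 42.7 and 13.9 in females. Replicates 2 and 3 of the 5th instar thus stood far above replicates 1 and 4, which lay at the lower end of the 1st instar values or below them. The adult minus 5th instar difference of -2.90 (SE 0.902, limma adjusted p = 0.0326) was lost without 5th instar replicate 2 or 3, male replicate 1 or 2, or female replicate 4 (limma adjusted p of 0.0566 to 0.0894), and under TPM (0.123), quantile normalization (0.102), no filter (0.0713) and a fit of both stages alone (0.114). Its second contig, c61129_g1_i2, followed it closely, with a ratio of c61129_g1_i1 to c61129_g1_i2 between 0.805 and 1.33 in the 12 libraries.

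The unigene c60556_g1, described as a delta-11 desaturase by its match to *Helicoverpa zea*, was below 5 FPKM in both female libraries of this age. No Swiss-Prot match was listed for its contigs. A delta-11 desaturase makes the precursor of the main pheromone aldehyde in this species. Whether these contigs encode that enzyme was not tested, and whole bodies do not give its level in the pheromone gland. Summed over both contigs of c60556_g1, it was at 4.19 and 3.11 FPKM in females, at 40.5 and 38.6 in males and at 4.32, 4.63, 4.75 and 4.31 in the 1st instar. In the 5th instar it was at 83.9, 12.8, 2.86 and 0.896, with replicate 1 above every other library. Both male libraries lay above both female libraries for each contig. The male minus female difference did not pass the test, at 2.87 (SE 1.45, limma adjusted p = 0.253) for c60556_g1_i1, 2.70 (SE 1.15, limma adjusted p = 0.171) for c60556_g1_i2 and 3.13 (SE 1.32, limma adjusted p = 0.148) for their sum. The ratio of the first contig to the second ran from 0.0291 to 6.0 over the libraries. The contig c55161_g1_i1, described as delta-11-like from the silkworm *Bombyx mori*, was at 0.132 to 0.729 FPKM in the 1st instar and at 0.890, 7.69, 1.73 and 1.23 in the 5th, and no comparison called it.

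The remaining desaturases included the sphingolipid desaturase c63154_g1, which by its annotation belongs to the enzymes that introduce the double bond of ceramide. Summed over its 3 contigs it was at 60.7, 65.5, 63.6 and 70.8 FPKM in the 1st instar, at 42.2, 19.7, 29.6 and 11.9 in the 5th, at 6.59 and 7.32 in males and at 6.04 and 7.23 in females. The 3 stages did not overlap, and the sum was higher in the 1st than the 5th instar by 1.44 (SE 0.310, limma adjusted p = 0.00396) and lower in adults than in the 1st instar, at -3.09 (SE 0.310, limma adjusted p = 8.17e-06). Of the contigs, c63154_g1_i2 differed between the larval stages, at 2.49 (SE 0.342, limma adjusted p = 0.0002), while the value for c63154_g1_i1 was 0.43 (SE 0.351, limma adjusted p = 0.361). The BmorQPVE3-type contig c56582_g2_i3 was at 3.24, 2.38, 5.13 and 4.36 FPKM in the 1st instar and at 0 to 0.216 in the other 8 libraries. The lyase contig c57546_g1_i1 was the most even, at 77.7 to 98.0 FPKM in the larvae and 22.9 to 35.8 in adults.

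Of the elongases, c61674_g1_i1 was the most abundant in larvae. It is 1 of 21 among the 29 elongase contigs tested that are described by a mosquito gene name, AAEL008004-like, which says nothing of the chain lengths an enzyme acts on. It was at 332, 263, 236 and 257 FPKM in the 1st instar, at 70.4, 63.2, 88.4 and 72.3 in the 5th, at 28.9 and 22.2 in males and at 39.5 and 32.8 in females. Each stage was separate from the next, and the larval difference was 1.87 (SE 0.220, limma adjusted p = 6.14e-05), a ratio of means of 3.69. Its adult minus 5th instar difference of -1.24 (SE 0.220, limma adjusted p = 0.0012) was lost under TPM, with a limma adjusted p of 0.67, and after quantile normalization, with one of 0.526.

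Larger larval differences were found in c60357_g2 and c58227_g1. The contig c60357_g2_i2 was at 73.5, 47.8, 27.2 and 64.3 FPKM in the 1st instar and at 2.85, 0.317, 0.819 and 0.661 in the 5th. The ratio of means was 45.8, and the difference of 4.69 (SE 0.366, limma adjusted p = 2.66e-06) was the largest of the 94 members in that comparison. Adults were at 4.27, 3.02, 3.50 and 4.37 FPKM, above every 5th instar library and far below the 1st instar. The other contig of this unigene, c60357_g2_i1, was at 111, 85.7, 70.2 and 108 FPKM in the 1st instar and at 9.13, 1.14, 2.97 and 5.47 in the 5th, a difference of 4.26 (SE 0.478, limma adjusted p = 4.38e-05). The contig c58227_g1_i1 was at 207, 155, 143 and 176 FPKM in the 1st instar, at 18.1, 20.5, 15.7 and 21.1 in the 5th and at 1.67, 5.88, 7.44 and 17.5 in the male and female adults in turn, and the larval difference was 3.10 (SE 0.452, limma adjusted p = 0.000308). All 3 larval calls held under every alternative.

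The elongase c59301_g1_i1 behaved differently in adults. It was at 53.5, 54.4, 56.0 and 56.1 FPKM in the 1st instar, at 10.9, 12.1, 12.7 and 5.82 in the 5th, at 160.2 and 67.3 in males and at 27.0 and 36.8 in females. All 8 libraries of the 1st instar and of adults lay above the 5th instar. Adults exceeded the 5th instar by 2.41 (SE 0.460, limma adjusted p = 0.0021), which held under every alternative, and the adult minus 1st instar difference was 0.06 (SE 0.460, limma adjusted p = 0.934). Males exceeded females by 1.69 (SE 0.423, limma adjusted p = 0.0267), but this call was lost without male replicate 1 (limma adjusted p = 0.171) or female replicate 3 (0.161). It was also lost under TPM (limma adjusted p = 0.0687), after quantile normalization (0.084), with a replicate block (0.0682) and in a fit of adults alone (0.239). Single contigs of the neighbouring unigenes c59301_g2 and c59301_g3 lay between 4.23 and 35.6 FPKM over the libraries. Among the elongases with a mammalian name, the elongase 6-like contig c59763_g1_i1, whose mammalian namesake lengthens palmitic acid, was at 27.4, 26.7, 26.5 and 29.1 FPKM in the 1st instar and at 20.9, 11.1, 24.8 and 13.6 in the 5th, and its difference of 0.68 (SE 0.286, limma adjusted p = 0.0793) did not pass the test.

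The reductases were dominated by the unigenes c55262_g1 and c55262_g2, which share the description of a fatty acyl reductase of *A. segetum* and the KEGG name FAR, and for which no Pfam domain was listed. The contig c55262_g2_i1 was at 1022, 965, 788 and 1157 FPKM in the 1st instar, at 140.0, 508, 175 and 384 in the 5th, at 65.1 and 96.1 in males and at 51.6 and 95.6 in females. The contig c55262_g1_i1 was at 555, 415, 383 and 521 FPKM in the 1st instar, at 59.6, 153, 76.9 and 129 in the 5th, at 35.1 and 26.0 in males and at 44.0 and 29.8 in females. In both the 3 stages did not overlap, and the ratio of c55262_g2_i1 to c55262_g1_i1 was 1.17 to 3.70 over the libraries. Their larval differences were 1.88 (SE 0.391, limma adjusted p = 0.0031) and 2.23 (SE 0.308, limma adjusted p = 0.000207). The adult minus 1st instar differences were -3.69 (SE 0.391, limma adjusted p = 1.44e-05) and -3.77 (SE 0.308, limma adjusted p = 1.64e-06), called under every alternative, whereas the lower adult level against the 5th instar was lost under TPM (limma adjusted p = 0.239 and 0.362) and after quantile normalization (0.291 and 0.243).

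The CG5065-like reductases of c61406 were high at different stages, c61406_g1 in the 1st instar and c61406_g2 in males. CG5065 is a fruit fly gene of the family, and the matches were to *B. mori*. Summed over its 3 contigs, c61406_g1 was at 162, 143, 157 and 167 FPKM in the 1st instar, at 36.6, 7.44, 2.94 and 11.4 in the 5th, at 35.3 and 31.5 in males and at 36.9 and 31.7 in females. It was higher in the 1st than the 5th instar by 3.82 (SE 0.507, limma adjusted p = 0.000157), and the male minus female difference was -0.04 (SE 0.756, limma adjusted p = 1). Its neighbour c61406_g2 was at 4.20, 3.05, 1.104 and 3.49 FPKM in the 1st instar, at 0.406, 0.419, 1.102 and 1.76 in the 5th, at 30.7 and 30.6 in males and at 0.104 and 0.898 in females, with both males far above every other library. The reductase c61978_g1_i1, matched to fatty-acyl CoA reductase 1 of the corn borer *Ostrinia nubilalis*, was at 76.9, 58.7, 54.9 and 70.9 FPKM in the 1st instar, at 7.29, 6.41, 2.97 and 10.6 in the 5th, at 5.97 and 6.69 in males and at 21.3 and 16.3 in females. Its larval difference was 3.17 (SE 0.417, limma adjusted p = 0.000143) and its sex difference, at -1.42 (SE 0.418, limma adjusted p = 0.0519), did not pass the test.

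The 2 members lower in the 1st than the 5th instar were reductases. The contig c57998_g1_i1 was at 0, 0.0360, 0.12 and 0.0390 FPKM in the 1st instar and at 0.458, 5.93, 4.81 and 1.95 in the 5th, a difference of -1.79 (SE 0.464, limma adjusted p = 0.0103). The contig c58999_g1_i2 was at 0.334, 0.178, 0.324 and 0.221 FPKM in the 1st instar and at 1.59, 9.08, 3.83 and 3.52 in the 5th, a difference of -1.95 (SE 0.346, limma adjusted p = 0.00115), and it was listed at 0 in all adults. Its sister contig c58999_g1_i1 went the other way, at 5.57, 4.92, 5.64 and 3.64 FPKM in the 1st instar and 0, 6.15, 0 and 0.0320 in the 5th. Summed over the contigs of c58999_g1 the larval difference was 0.41 (SE 0.483, limma adjusted p = 0.547). This unigene was at 0 to 0.022 FPKM in adults, and its adult minus 5th instar difference was -2.70 (SE 0.483, limma adjusted p = 0.0012).

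The comparison of adults with larvae asked which enzymes change level over metamorphosis, and its counts depended on how the libraries were scaled. Against the 5th instar, 10 members were higher in adults and 26 lower, while 27.0% of all contigs tested were called, 7.31% higher and 19.7% lower. Under TPM the members split into 30 higher and 11 lower, and after quantile normalization into 14 and 13. The higher side thus held 73.2% and 51.9% of the member calls, near the 71.0% and 50.9% of the calls over all contigs. A fit of the adult and 5th instar libraries alone called 19. With the adult sexes as separate groups 43 were called, 17 higher and 26 lower. The median difference of all contigs was -0.19 on the log2(FPKM + 1) scale, 0.53 under TPM and 0.15 after quantile normalization, and that of the members on the deposited FPKM was -0.10. Called in the same direction under all 3 scalings were 10 members that rose in adults and 9 that fell, 10.6% and 9.57% of the 94, against 7.31% and 11.2% of all contigs tested. Those that rose were 8 reductases and 2 elongases, and those that fell were 3 desaturases and 6 reductases. With any 1 library left out, between 28 and 40 members were called.

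Of the reductases that rose in adults under all 3 scalings, 5 were contigs of c61963_g2. Summed over the unigene, the level was at 4.48, 2.81, 2.11 and 2.94 FPKM in the 1st instar, at 0.267, 1.91, 0.820 and 0.779 in the 5th, at 32.7 and 25.4 in males and at 7.36 and 13.3 in females. Every adult library was above every larval library, and adults exceeded the 5th instar by 3.28 (SE 0.419, limma adjusted p = 8.29e-05) and the 1st instar by 2.17 (SE 0.419, limma adjusted p = 0.00117). The contig c61800_g1_i1, matched to fatty-acyl CoA reductase 5 of *O. nubilalis*, was at 2.65, 1.38, 2.92 and 2.46 FPKM in the male and female adults in turn, at 0.0890, 0.204, 0.282 and 0.0430 in the 5th instar and at 0.830, 0.974, 0.696 and 0.950 in the 1st. It too was higher in every adult library than in any larval one, by 1.52 (SE 0.223, limma adjusted p = 0.000304) against the 5th instar. The reductase unigene c62856_g1 was lower in adults, with 2 of its contigs called under all 3 scalings. A lectin domain was listed beside the reductase domains for 4 of its 5 member contigs, so that their values cannot be given to a reductase alone. Summed over the 5 member contigs, c62856_g1 was at 33.3, 46.4, 58.0 and 6.003 FPKM in the 5th instar and at 0.874, 2.40, 2.67 and 2.25 in adults. The fitted sum takes in every contig of the unigene, members or not. For that sum the adult minus 5th instar difference was -3.32 (SE 0.573, limma adjusted p = 0.000906).

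Against the 1st instar, 6 members were higher in adults and 57 lower, while 45.7% of all contigs tested were called, 14.1% higher and 31.6% lower. Under TPM the split was 14 and 28, and after quantile normalization 9 and 45. Called in the same direction under all 3 scalings were 6 higher and 28 lower members, 6.38% and 29.8% of the 94, against 14% and 15% of all contigs tested. The median difference of the members was -1.43, against -0.12 over all contigs tested. On the deposited FPKM 23 of 29 elongases were lower in adults than in the 1st instar, with 11 of 20 desaturases and 23 of 45 reductases. Under all 3 scalings 7 elongases, 9 desaturases and 12 reductases were called lower, so that the elongase count depended most on the scaling. With any 1 library left out, between 57 and 65 members were called. With the adult sexes as separate groups 68 were called, 10 higher and 58 lower.

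The adult sexes were compared to find enzymes that differ between males and females on the first day after eclosion, and the direction of the calls depended on which members were tested. Of the 94 members, 12 were higher in males and 2 in females, while 12.4% of all contigs tested were called, 6.82% higher in males and 5.56% higher in females. The 14 contigs lay in 9 unigenes. With 2 libraries a sex an exact permutation test cannot go below 0.333, and the fit takes its spread from the larval libraries too. The count fell to 9 without male replicate 1 and to 5 in a fit of the adult libraries alone. The median difference was 0.13 for the members and 0.09 for all contigs tested. Under TPM 11 members were higher in males and 5 in females, and after quantile normalization 10 and 6. Over all contigs, 34.5% and 36.9% of the calls under these scalings were higher in males. Called in the same direction under all 3 scalings were 10 members higher in males and 2 in females, 10.6% and 2.13% of the 94, against 5.10% and 5.56% of all contigs tested. Among the 44 members with a mean of at least 5 FPKM, 3 were higher in males and 3 in females. No share over all contigs is given for that filter, so this count cannot be set against the other contigs.

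**Figure D5:**
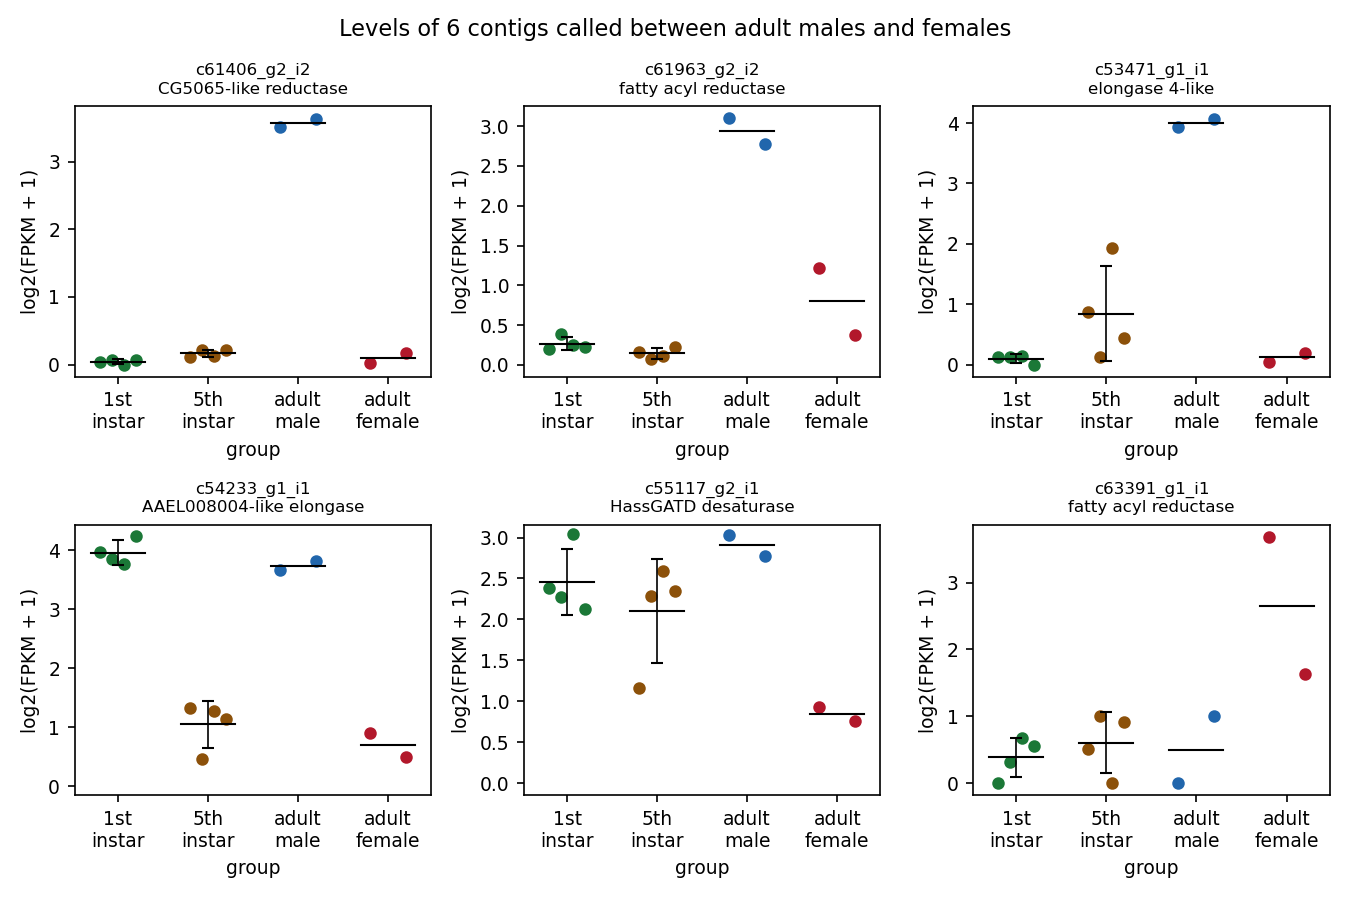
Levels of 6 contigs called between the adult sexes as log2(FPKM + 1) (y axis, its range set per panel) in the 12 libraries by group (x axis); points are libraries, horizontal lines are group means and bars are SD for the larval groups (n = 4). The first 5 panels are higher in both males than in both females, with c61406_g2_i2 at 10.4 and 11.4 FPKM in males and at most 0.160 in any other library, and c63391_g1_i1 is higher in females.

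The sharpest sex difference was in the reductase c61406_g2. Its contig c61406_g2_i2 was at 10.4 and 11.4 FPKM in males, at 0.0130 and 0.129 in females and at 0 to 0.160 in the 8 larval libraries. The male minus female difference was 3.48 (SE 0.191, limma adjusted p = 2.94e-07). The contig c61406_g2_i3 had nearly the same levels, at 11.3 and 10.3 in males and 0.0260 and 0.129 in females, with a difference of 3.46 (SE 0.195, limma adjusted p = 3.64e-07), and c61406_g2_i1, which was also above 1 FPKM in the 1st instar, differed by 2.90 (SE 0.464, limma adjusted p = 0.00193). Summed over the unigene the difference was 4.45 (SE 0.478, limma adjusted p = 7.28e-05). The 3 contig calls held under every alternative, the fit of adults alone and each library left out included.

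The elongases c53471_g1_i1 and c54233_g1_i1 also held as higher in males under every alternative. The first is described as elongase 4-like, after a mammalian enzyme that makes very long chains in retina, skin and testis. It was at 14.3 and 15.9 FPKM in males, at 0.0320 and 0.146 in females, at 0.0870, 0.0950, 0.108 and 0 in the 1st instar and at 0.826, 0.0910, 2.79 and 0.362 in the 5th, a male minus female difference of 3.88 (SE 0.464, limma adjusted p = 0.000215). The contig c54233_g1_i1 was at 11.7 and 13.1 FPKM in males and 0.883 and 0.421 in females, a difference of 3.03 (SE 0.311, limma adjusted p = 6.06e-05). It was at 14.7, 13.5, 12.6 and 18.0 FPKM in the 1st instar and 1.51, 0.385, 1.42 and 1.21 in the 5th, so that males stood close to the 1st instar and females close to the 5th. Its second contig c54233_g1_i2 differed between the sexes by 2.36 (SE 0.363, limma adjusted p = 0.00148), with a limma adjusted p of 0.0517 in the fit of adults alone.

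The HassGATD-type desaturases, named after the oriental tobacco budworm *Helicoverpa assulta*, were lowest in females. The contig c55117_g2_i1 was at 7.20 and 5.85 FPKM in males and 0.902 and 0.691 in females, and at 1.25 to 7.24 in the larvae. The contig c55117_g1_i1 was at 3.75 and 4.06 FPKM in males and 0.591 and 0.421 in females, and at 1.21 to 6.54 in the larvae. Both female libraries were thus the lowest of the 12 for each contig. The male minus female differences were 2.06 (SE 0.447, limma adjusted p = 0.0128) and 1.70 (SE 0.416, limma adjusted p = 0.0237). That of c55117_g1_i1 was lost without any 1 of the 4 adult libraries, at 0.0735 to 0.111, and that of c55117_g2_i1 without male replicate 1 or 2 or female replicate 3, at 0.0521 to 0.0983 (limma adjusted p in each case). In the fit of adults alone both were lost, with limma adjusted p of 0.0621 and 0.0595.

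In the adult-rich reductase c61963_g2, 3 of 5 contigs were higher in males, among them c61963_g2_i2 at 7.57 and 5.86 FPKM in males and 1.33 and 0.303 in females, a difference of 2.14 (SE 0.275, limma adjusted p = 0.000389), which was lost in the fit of adults alone (limma adjusted p = 0.126). For the sum of the unigene it was 1.45 (SE 0.417, limma adjusted p = 0.0411). The contigs higher in females were the desaturase c60504_g3_i1, given above, and the reductase c63391_g1_i1. The latter was at 11.8 and 2.09 FPKM in females, at 0 and 0.995 in males and at 0 to 1.01 in the larvae, a male minus female difference of -2.16 (SE 0.613, limma adjusted p = 0.0456). It was lost without 9 of the 12 libraries, taken 1 at a time, among them female replicate 3 (limma adjusted p = 0.29) and male replicate 1 (0.253), and under 6 other alternatives, the fit of adults alone among them (0.338). Summed over the contigs of c63391_g1 the difference was -1.03 (SE 1.03, limma adjusted p = 0.605).

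Enzymes that act beside the members were described from word lists over the same annotation. Of the 5 tested contigs listed as partners in the elongation cycle, the 3 of c61993_g2, matched to the 3-ketoacyl reductase estradiol 17-beta-dehydrogenase 12, were higher in the 1st than the 5th instar and lower in adults than in the 1st instar. The other 2 are annotated as mitochondrial enoyl-CoA reductases and were not called between the larval stages. The word list for cytochrome b5, the electron donor of acyl-CoA desaturases, also matched cytochrome b561, a separate protein. Of the 16 tested contigs of that list, 9 were higher in the 1st than the 5th instar and 3 lower. By description these were 3 of 5 cytochrome b5 contigs, 3 of 4 cytochrome b5 reductase contigs and 3 of 4 cytochrome b561 contigs on the higher side, and all 3 cytochrome b5-related contigs on the lower. The contig c50638_g1_i1, a cytochrome b5-like protein, had means of 341 FPKM in the 1st instar, 39.1 in the 5th, 0.903 in males and 0.282 in females.

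The word list for fatty acid synthesis, which makes the chains that the members modify, also took in malic enzyme. Of its 12 tested contigs 2 were higher and 2 lower in the 1st than the 5th instar, with a median difference of 0.04. Both lower contigs were malic enzymes, while of the 5 fatty acid synthase contigs 1 was higher and 0 lower. In adults 5 contigs of the list were higher and 2 lower than in the 5th instar, the lower ones being the same malic enzyme contigs. The fatty acid synthase contig c57392_g1_i1 had means of 9.58 FPKM in the 1st instar, 15.9 in the 5th, 250.1 in males and 102 in females. Its male minus female difference was not called (limma adjusted p = 0.358). The synthase-like contig c61768_g1_i1 went the other way, with means of 109, 30.3, 5.12 and 21.6 FPKM in the same order. It was called higher in the 1st than the 5th instar (limma adjusted p = 0.0122) and in females than males (limma adjusted p = 0.0336). Of 5 synthase contigs tested, 4 were higher in adults than in the 5th instar and 0 lower. These 4 were contig pairs of the unigenes c57392_g1 and c62092_g1, so that they are not separate genes. The list summed to 701 to 755 FPKM in males and 148 to 476 in females. Of 17 contigs of acyl activation and transfer, 3 were higher and 2 lower in the 1st than the 5th instar. Among these the acyl-CoA binding protein c43470_g1_i1 had means of 96.9 FPKM in males and 0.308 in females, with a limma adjusted p of 8.69e-08.

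Markers of tissues that whole bodies hold moved with some of these differences, and their part in the results was not tested. All 5 tested contigs of CYP4G, the oenocyte cytochrome P450 of hydrocarbon synthesis, were higher in the 1st than the 5th instar, with a median difference of 3.85. All but c60188_g1_i1 belong to a single unigene, c59969_g1. The contig c60188_g1_i1, the most abundant, had a difference of 1.84. The 7 contigs of that list summed to 1820 to 2234 FPKM in the 1st instar, 193 to 660 in the 5th, 336 to 479 in males and 318 to 624 in females. Of 19 egg and ovary contigs 9 were higher in females, with sums of 840 to 1685 FPKM in females and 125 to 184 in males. Of 52 testis and sperm contigs 5 were higher in males and 2 in females, with sums of 418 to 482 FPKM in males and 218 to 232 in females. Over all contigs tested, 6.82% were higher in males and 5.56% in females. Neither list was confined to adults. The egg and ovary list summed to 706 to 1336 FPKM in the 1st instar and 317 to 824 in the 5th. The testis and sperm list summed to 509 to 542 and 585 to 984, above both males. Of 7 flight muscle contigs 3 were higher in males. Of 115 larval digestive protease contigs 92 were lower in adults than in the 5th instar and 8 higher.

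The spread between libraries differed by stage. By the paper's methods, the 1st instar pools held more insects each than the pools of the 5th instar or of adults. Pool size thus changed with stage, and its part in the spread was not tested. The median coefficient of variation of the members was 18.4% in the 1st instar and 62.8% in the 5th, where all contigs tested had 18.9% and 50%. Replicate 2 was the highest 5th instar library for 36 of the 94 members, against 26.2% of all contigs tested. It alone carried the reductase c58585_g1_i1, at 5.41, 69.7, 7.74 and 4.47 FPKM in the 5th instar and 10.3, 8.93, 11.1 and 9.50 in the 1st. In all, 14 of the 94 members were called in no comparison, 5 desaturases, 3 elongases and 6 reductases, among them the delta-9 contig c52334_g1_i1 and both delta-11 contigs.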

How the data were processed

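RNA of 12 pools of whole insects was sequenced, and 1 table of FPKM for all libraries was used, with no per-sample value column left out. Per the submitters' processing notes and methods, the authors trimmed the reads, assembled contigs with Trinity 2.0.6, mapped reads with Bowtie 0.12.7, estimated the deposited FPKM with RSEM 1.1.17 and described contigs by their best BLASTx match. Strand was not given in the sources used here, and the files hold no counts, so no interval for counting error was computed. Pools are the replicates. Nothing states that they came from separate cultures, so p-values measure the spread between these pools only.

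Values were analysed as log2(FPKM + 1) with limma 3.58.1 (R 4.3.3; moderated test with an intensity trend, Benjamini-Hochberg adjustment over the 27678 contigs with a mean of at least 1 FPKM). Stages were compared in a fit of 3 stages and the sexes in a fit of 4 groups, each over all 12 libraries. Single contigs were also compared with two-sided exact permutation tests (scipy 1.17.1). Unigene sums were fitted as an alternative. The fit was tested on simulated data. Tables and figures were made with Python 3.11.15, numpy 2.4.6, pandas 2.3.3 and matplotlib 3.10.9. Alternatives were pseudocounts of 0.1 and 0.5, no filter, a mean of at least 5 FPKM, TPM, quantile normalization, the compared groups alone, a robust spread, separate adult sexes, a replicate block, unigene sums and each library left out.

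Members and word lists were chosen with earlier results of these data known. Within each class the contigs named were, for each comparison, the 4 with the largest called change in each direction among those whose libraries did not overlap, the 3 most abundant in each group, and every tested contig described by a delta position, as a sphingolipid or dihydroceramide enzyme, or by pheromone. Contigs described for their annotation, for a gap between libraries, as the neighbour of a named contig or from the word lists were chosen after their values were seen. Gene positions and sequences were not used here, since the contigs could not be matched to a reference.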

Additional observations from a re-analysis of the deposited data

Results flagged for a closer look

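A library lay far from the other 3 of its group in 9 of 143 groups of 4 libraries checked by Dixon's test on the gap to its nearest neighbour. Chance gives about 5%, 1 in 20 groups, or 7.15 of these. Of the 9, 5 were in replicate 2 of the 5th instar. That library stood at 74.2 FPKM for the desaturase c57470_g1_i1, with the next 5th instar library at 8.42, and at 69.7 for the reductase c58585_g1_i1, with the next at 7.74. It stood at 7.69 FPKM for the delta-11-like desaturase c55161_g1_i1, at 6.15 for the reductase c58999_g1_i1 and at 0.657 for the reductase c61963_g2_i4, with the next libraries at 1.73, 0.0320 and 0.0400. For the delta-11 desaturase contig c60556_g1_i1, replicate 1 was the high library both in the 5th instar, at 58.0 FPKM against 1.52 for the next, and in the 1st instar, at 1.45 against 0.338. The desaturase c57470_g2_i1 was low in 5th instar replicate 3, at 1.44 FPKM with the next library at 13.5. Among adults, the delta-9 contig c61129_g1_i2 was highest in female replicate 3, at 49.99 FPKM with the next at 20.95.

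For 5 of the members called between the sexes, both male libraries lay above the mean of the 5th instar on the log2(FPKM + 1) scale and both female libraries below it. Libraries of the 5th instar overlapped those of a sex in all of them but c55117_g2_i1. The difference between these changes, which is the male minus female difference itself on the log2(FPKM + 1) scale, was 3.88 (limma adjusted p = 0.000215) for the elongase 4-like c53471_g1_i1, with changes of 3.16 in males and -0.72 in females. For the elongase c54233_g1_i1 it was 3.03 (limma adjusted p = 6.06e-05), from 2.69 and -0.34. The reductase contig c61406_g2_i3 gave 3.46 (limma adjusted p = 3.64e-07), from 3.38 and -0.08. The HassGATD-type desaturases gave 2.06 (limma adjusted p = 0.0128) for c55117_g2_i1, from 0.81 and -1.26, and 1.70 (limma adjusted p = 0.0237) for c55117_g1_i1, from 0.17 and -1.53. The 2 libraries of each sex share the 5th instar as reference, and each contig is 1 of the 14 members called between the sexes.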

How the results depend on the processing

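Under the alternatives fitted to single contigs, no named change reversed. Of 92 called changes of the contigs named, 53 kept their call under all of these alternatives that tested the contig, 19 of 23 between the larval stages, 18 of 30 between adults and the 1st instar, 11 of 26 between adults and the 5th instar and 5 of 13 between the sexes. TPM lost 23 calls, the compared groups alone 22, quantile normalization 15 and leaving out male replicate 1 lost 16. The cause was not tested. Unigene sums were fitted apart, and that of c58999_g1 had a larval difference of 0.41, where its contig c58999_g1_i2 was at -1.95.

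Fits of the compared groups alone called 19 members between adults and the 5th instar (36 in the fit of all libraries) and 5 between the sexes (14). With a mean of at least 5 FPKM, which leaves 44 members, 35 were called between adults and the 1st instar (63 otherwise), 30 between the larval stages (48) and 6 between the sexes, 3 in each direction. As sums over 54 unigenes, 35 and 31 were called in the first 2 of these comparisons. With 1 library left out, the counts were 46 to 53 between the larval stages, 57 to 65 and 28 to 40 between adults and the 1st and 5th instar, and 9 to 16 between the sexes. For alternatives other than TPM and quantile normalization, no share over all contigs is given beside the member counts.

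Scaled to TPM, mean desaturase sums were 860 in the 1st instar (1207 FPKM) and 1422 in females (655). Reductase sums were 1304 in the 1st instar (1838), 436 in males (291) and 520.3 in females (256). Elongase sums were 689 in the 1st instar (968), 177 in the 5th (218), 438 in males (292) and 373 in females (180.2).

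With the replicate number as a block, 37 and 62 members were called between adults and the 5th and 1st instar, 49 between the larval stages and 12 between the sexes, and 4 named calls were lost. The block took the column numbers for the sexes, where females are 1 and 2, and the title numbers, where they are 3 and 4, for the stages. The title numbers did not pair the libraries. Deviations correlated at -0.160 to 0.0765 for the 12 same-numbered pairs and at -0.159 to 0.187 for 36 others.

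Depth is known only in relative terms. From the steps between low values, 1 fragment was worth approximately 1.58 to 2.23 times as much FPKM in the 1st instar, 1.65 to 2.68 times in the 5th and 1.07 to 1.52 times in males as in female replicate 3, so that low larval values rest on fewer fragments. Sex calls rest on 2 libraries each.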
